A study of Homo sapiens with 16 samples.

Results

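The iron genes described here are those for iron storage (the ferritin chains FTH1 and FTL), uptake (the transferrin receptor TFRC, its ligand transferrin TF, and the divalent metal transporter SLC11A2), export (ferroportin SLC40A1 and its inhibitor hepcidin, HAMP) and iron sensing (the iron regulatory proteins ACO1 and IREB2). They were measured on Affymetrix arrays of HepG2, a human hepatoma line that makes many hepatocyte proteins. Members were the probe sets (groups of short probes read together) whose platform gene symbol is 1 of these 9. That rule gave 14 probe sets of 6 genes among the 22215 probe sets outside the controls. FTL had 2, TF 4, TFRC 2, SLC11A2 4, HAMP 1 and ACO1 1. No probe set carried the symbol FTH1, SLC40A1 or IREB2 in the annotation used, so these 3 genes were not analysed here.

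All cells received a recombinant adenovirus, and no cells without virus are among the 16 arrays. The virus carried either GPI-PLD, a phospholipase that cuts glycosylphosphatidylinositol anchors and releases proteins from the cell surface, or LacZ, the bacterial beta-galactosidase used as control. The 4 groups were GPI-PLD at 12 h, LacZ at 12 h, GPI-PLD at 6 h and LacZ at 6 h, with 4 arrays each. The series asks how GPI-PLD alters gene expression in these cells. Nothing in the labels tells whether the 4 arrays in each group were made from separate cultures. The p-values therefore cover only the spread among these arrays, which may be technical. In such bulk RNA, fewer cells with a transcript and less of it per cell cannot be told apart.

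Iron enters hepatocytes mainly as iron bound to transferrin, which TFRC carries into the cell. SLC11A2 moves ferrous iron across membranes, ferritin stores it, and ferroportin lets it out. Hepcidin, a peptide hormone secreted by the liver, binds ferroportin and blocks export. Iron regulatory proteins bind hairpins called iron responsive elements: on ferritin mRNA they block translation, and on TFRC mRNA they slow decay. Transcript levels therefore show only part of this control. BMP signals through SMAD proteins, and interleukin-6 through STAT3, raise HAMP transcription.

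The array labels could be checked only in part. None of the 5 GPLD1 probe sets, which read the gene for GPI-PLD, passed the test between GPI-PLD and LacZ cells, at 12 h (log2 differences -0.33 to 0.18, lowest adjusted p = 0.913) or at 6 h (-0.22 to 0.60, lowest adjusted p = 0.9997). The highest was 206266_at at 6 h, with an unadjusted p = 0.0122. The GPLD1 signal thus does not verify the arrays labelled GPI-PLD, and groups are named by their labels throughout. Whether these probe sets read the transcript of the virus was not tested. All 7 hepatocyte markers named on the array gave signals of 3044 or more on every array, and albumin (ALB) had a median signal of 85483. Their summed signal was 309681 to 354502 in GPI-PLD cells and 302986 to 336178 in LacZ cells at 12 h, and 304025 to 333116 in GPI-PLD cells and 286799 to 315016 in LacZ cells at 6 h. Markers of other cell types were not all dim. Among 5 fibroblast markers, COL1A1 read 534 to 1175, COL1A2 208 to 608, DCN 93.3 to 601 and COL3A1 11.5 to 318, while LUM reached at most 24.6. Among 3 endothelial markers PECAM1 read 112 to 544, VWF 16.5 to 143 and CDH5 8.1 to 73.5. Among 3 erythroid markers HBB read 268 to 789, SLC4A1 71.3 to 467 and ALAS2 18.8 to 36.5. Of 4 leukocyte markers LYZ read 5406 to 13289, while PTPRC, CD14 and CD163 reached at most 235, 196 and 302.

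Stretches of 2 member genes are shown because they hold letter matches to the kinds of control element named above. The HAMP line is the 250 bases before its transcription start, at chr19:35282278-35282527, and the FTL line is 30 bases of its mRNA's first exon, at chr19:48965329-48965358 (RefSeq, GRCh38.p14, both on the plus strand, 5′ to 3′). In HAMP the capitals mark matches to GGCGCC, the core of the BMP response element, and to TTCNNNGAA, a STAT element. In FTL they mark the loop pattern of the iron responsive element, CNNNNNCAGTGN.
HAMP: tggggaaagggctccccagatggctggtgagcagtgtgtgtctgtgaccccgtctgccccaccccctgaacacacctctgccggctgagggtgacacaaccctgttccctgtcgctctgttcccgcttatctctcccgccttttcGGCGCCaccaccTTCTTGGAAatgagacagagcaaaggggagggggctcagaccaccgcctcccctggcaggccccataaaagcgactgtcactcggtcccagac
FTL: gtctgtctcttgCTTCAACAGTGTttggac
The HAMP matches lie 105 to 100 and 93 to 85 bases before the start. Both patterns read the same on either strand, and they do not overlap. Of 35116 promoter windows of this length, 16.4% held GGCGCC, 6.57% held TTCNNNGAA and 0.538% held both. GGCGCC was also found in a promoter window of ACO1, IREB2, TF and TFRC, and among the members searched TTCNNNGAA was found in HAMP alone. FTH1 had 0 windows and was not searched, while SLC11A2 had 4 and TF and IREB2 had 2 each. The FTL match covers bases 33 to 44 of the transcript, and the pattern, searched on the sense strand, occurred in 1.67% of windows of the first 50 transcribed bases. A match describes letters and is not evidence that a factor binds there.

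Hepcidin was the member whose transcript passed a test, and the test was between times. HAMP (probe set 220491_at) was 1.65-fold higher at 12 h than at 6 h in GPI-PLD cells and 1.53-fold higher over both viruses together. No member passed between GPI-PLD and LacZ cells after adjustment. The highest HAMP signal of the 16 arrays was 2.92 times the lowest. That range was not particular to HAMP, since TF 214064_at spanned 3.62-fold and SLC11A2 203123_s_at 2.28-fold without a call, while the brightest sets of FTL and TF spanned 1.43-fold and 1.32-fold. ACO1 and the brightest SLC11A2 set had log2 differences of -0.29 and -0.27 between 12 h and 6 h over both viruses, short of the threshold.

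Signals are MAS5 values on a linear scale. MAS5 reduces the probes of a set to 1 signal, and the deposited arrays share a common mean, so every difference is relative to the rest of the array. Differences are in log2(signal + 63) and errors after them are standard errors. A probe set was called where its limma p, adjusted by Benjamini and Hochberg over all 22215 probe sets, was under 0.05. Means of signals have standard deviations, with n = 4 arrays unless said otherwise.

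**Figure D1:**
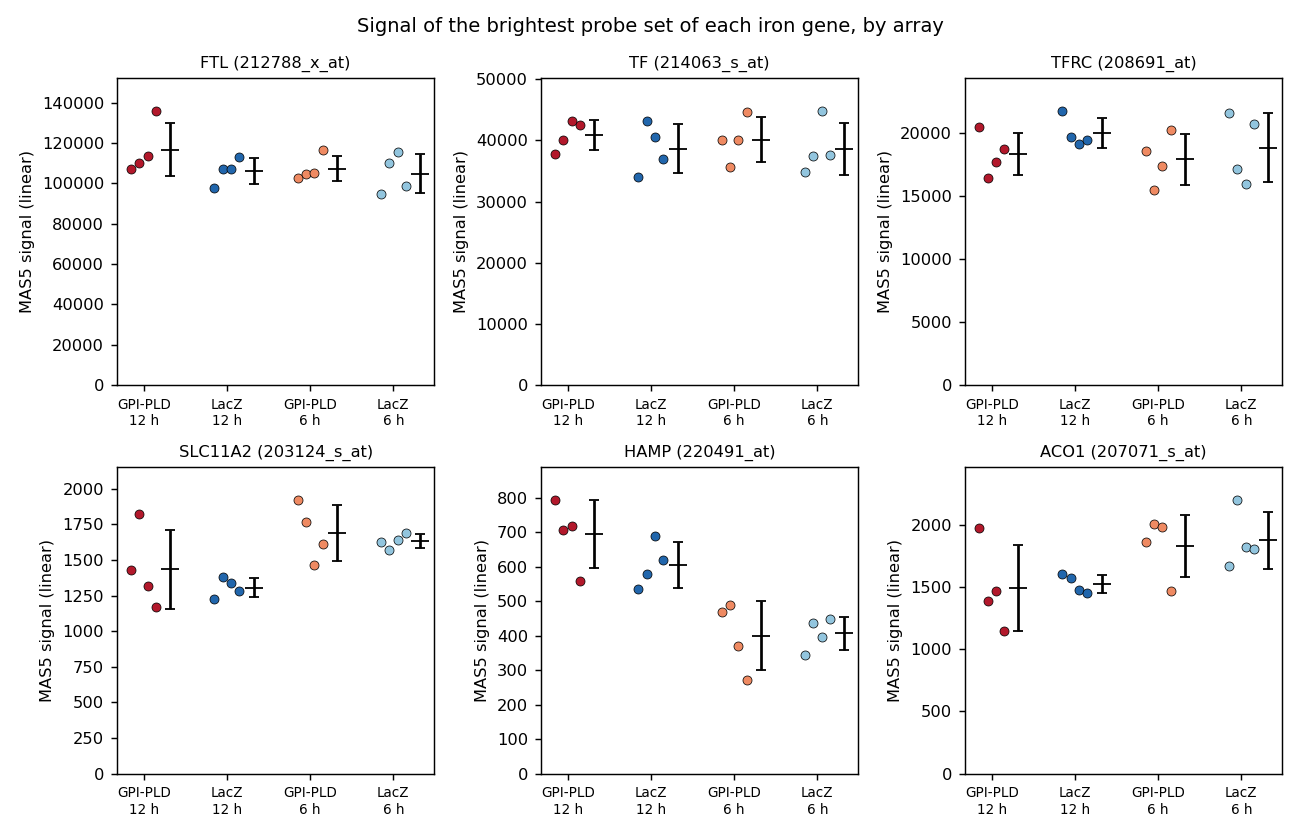
MAS5 signal (linear vertical axes, from 0) of the brightest probe set of each of the 6 iron genes, with points for the 4 arrays of each group and, beside them, the mean and standard deviation. All 8 HAMP values at 12 h (535.3 to 794.2) stand above all 8 at 6 h (271.9 to 490.1), while FTL, TF and TFRC overlap between groups.

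Ferritin light chain was read by 2 bright probe sets. FTL 212788_x_at gave 107348, 110252, 113743 and 135714 with GPI-PLD at 12 h, against 97574, 107332, 106889 and 113284 with LacZ at 12 h. The same probe set gave 102819, 104425, 105110 and 116477 with GPI-PLD at 6 h, against 94741, 110123, 115286 and 98596 in LacZ cells at 6 h. The 4 groups overlapped. At 12 h the difference of GPI-PLD from LacZ was 0.13 ± 0.08 (95% interval -0.03 to 0.29, adjusted p = 0.775), and at 6 h it was 0.04 ± 0.08. The other FTL probe set, 213187_x_at, ranged from 55558.5 to 68527 over the arrays and differed between viruses by 0.07 ± 0.07 at 12 h and -0.05 ± 0.07 at 6 h. Between 12 h and 6 h neither set was called, with 0.12 ± 0.08 (adjusted p = 0.489) for 212788_x_at in GPI-PLD cells and 0.02 ± 0.08 in LacZ cells. Names ending in x_at mark probe sets with probes that can also match other sequences, and FTL has processed pseudogenes, so these signals may hold more than the FTL transcript.

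Transferrin, the plasma iron carrier made by hepatocytes, had 4 probe sets. TF 214063_s_at gave 37707, 40104, 43156 and 42542 with GPI-PLD at 12 h, against 34028, 43176, 40512 and 36879.7 with LacZ at 12 h. At 6 h it gave 40099, 35602, 40109.6 and 44682 with GPI-PLD, against 34818, 37396, 44762 and 37577 in LacZ cells. These groups overlapped throughout. The virus difference was 0.08 ± 0.09 at 12 h and 0.06 ± 0.09 at 6 h, and the time difference was 0.03 ± 0.09 in GPI-PLD cells and 0.00 ± 0.09 in LacZ cells. The second bright set, 203400_s_at, averaged 25039 ± 4717 in GPI-PLD and 26738 ± 4137 in LacZ cells at 12 h, and 27557 ± 5032 in GPI-PLD and 25389 ± 2896 in LacZ cells at 6 h, again with overlap. The third, 214064_at, had its widest virus difference at 12 h, where GPI-PLD arrays read 268.4 to 972.6 and LacZ arrays 341.9 to 512.1 (0.49 ± 0.27, adjusted p = 0.761). The fourth, 220109_at, read 2.1 to 208.4 and was below the 40th percentile of mean signals.

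TFRC, the receptor that takes up transferrin, had 2 probe sets with different patterns. TFRC 208691_at gave 20490, 16470.3, 17714 and 18727 with GPI-PLD at 12 h, against 21755, 19707, 19155 and 19482 with LacZ at 12 h. At 6 h it gave 18638, 15472, 17374 and 20228 with GPI-PLD, against 21637, 17154, 15958 and 20713 in LacZ cells. All groups overlapped, with virus differences of -0.13 ± 0.10 at 12 h (adjusted p = 0.827) and -0.07 ± 0.10 at 6 h. TFRC 207332_s_at gave 14749, 17039, 15431 and 14564 in GPI-PLD cells at 12 h and 12962, 13367, 13398 and 12557 in GPI-PLD cells at 6 h. Those 2 groups did not overlap, a 1.18-fold difference that missed the threshold (0.24 ± 0.07, adjusted p = 0.0842). It passed under quantile normalization (0.31, adjusted p = 0.00878), with a filter at the 60th percentile and without replicate 3 of LacZ at 6 h (0.24 in both). In LacZ cells the same set gave 14056, 14819, 14489 and 14409.6 at 12 h and 13104, 12883, 15890.3 and 13968 at 6 h, which overlapped (0.05 ± 0.07). Averaged over viruses the time difference of 207332_s_at was 0.15 ± 0.05 (adjusted p = 0.113). For 208691_at the time difference was 0.04 ± 0.10 in GPI-PLD cells and 0.10 ± 0.10 in LacZ cells. The virus-by-time term for 207332_s_at was 0.18 ± 0.11 (adjusted p = 0.775), so its time difference was not shown to differ between viruses.

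SLC11A2, also known as DMT1, had 4 probe sets. SLC11A2 203124_s_at gave 1431, 1819.9, 1320.1 and 1169 with GPI-PLD at 12 h, against 1226, 1379, 1339 and 1283 with LacZ at 12 h. At 6 h it gave 1922, 1767, 1469 and 1611 with GPI-PLD, against 1627, 1567, 1643 and 1689.6 in LacZ cells. LacZ arrays at 12 h all lay below LacZ arrays at 6 h, and GPI-PLD arrays at the 2 times overlapped. The time difference was -0.24 ± 0.12 in GPI-PLD cells (adjusted p = 0.362) and -0.31 ± 0.12 in LacZ cells (adjusted p = 0.261). SLC11A2 203123_s_at gave 1113, 1127, 1069.5 and 1132 with GPI-PLD at 6 h, against 1516, 1727, 1244 and 1417 in LacZ cells at 6 h. All 4 GPI-PLD arrays were lower (-0.38 ± 0.15, 95% interval -0.69 to -0.08), with an unadjusted p = 0.0169 and an adjusted p = 0.9997. At 12 h this set averaged 1017 ± 195 in GPI-PLD and 1095 ± 182 in LacZ cells and the groups overlapped. Its time difference in LacZ cells, -0.41 ± 0.15 (adjusted p = 0.174), uses the same LacZ arrays at 6 h as its virus difference. Averaged over viruses the time difference was -0.27 ± 0.09 for 203124_s_at (adjusted p = 0.0658) and -0.28 ± 0.10 for 203123_s_at (adjusted p = 0.133). Without replicate 2 of GPI-PLD at 12 h, the highest of its group, 203124_s_at passed with -0.33.

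The other SLC11A2 sets did not pass between viruses at 6 h, with 0.04 ± 0.12 for 203124_s_at and -0.12 ± 0.17 for 203125_x_at. The dim set 210047_at, at 12.1 to 256, had -0.26 ± 0.45. SLC11A2 203125_x_at ranged from 629 to 1151 over all arrays and no contrast of it passed.

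**Figure D2:**
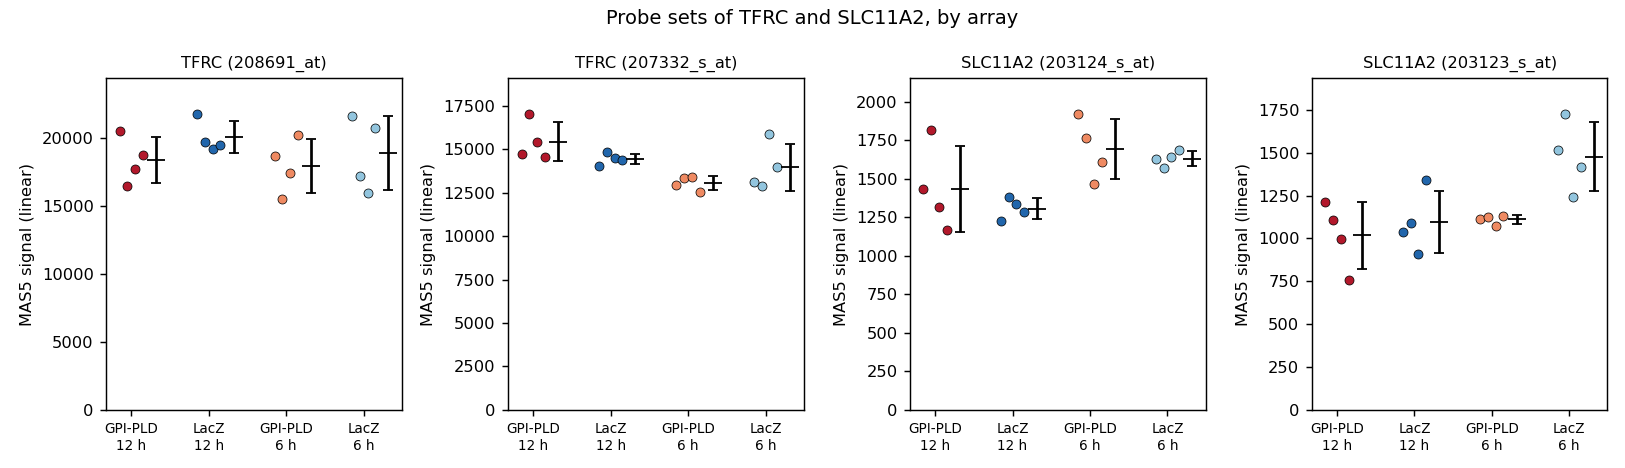
MAS5 signal (linear, from 0) by array for 2 probe sets each of TFRC and SLC11A2, with the mean and standard deviation of the 4 arrays beside each group. TFRC 207332_s_at is higher in GPI-PLD cells at 12 h than at 6 h while 208691_at overlaps, and SLC11A2 203123_s_at is highest in LacZ cells at 6 h while 203124_s_at shows no such gap between viruses.

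Hepcidin signals were moderate but the probe set separated the times. HAMP gave 794.2, 707.3, 718.4 and 557.8 with GPI-PLD at 12 h, against 535.3, 578.6, 689.3 and 619.4 with LacZ at 12 h. At 6 h HAMP gave 469.7, 490.1, 371.5 and 271.9 with GPI-PLD, against 343.9, 437.7, 398.0 and 448.4 in LacZ cells. The viruses overlapped at both times, and every 12 h array lay above every 6 h array. HAMP was the 1 member of 14 with this pattern, which held, with 12 h higher, for 1.37% of all probe sets, and with 12 h lower for 1.10%. Means were 694 ± 98.9 in GPI-PLD and 606 ± 65.5 in LacZ cells at 12 h, and 401 ± 100.3 in GPI-PLD and 407 ± 47.3 in LacZ cells at 6 h.

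Between viruses HAMP differed by 0.18 ± 0.19 at 12 h (95% interval -0.22 to 0.57, adjusted p = 0.882) and by -0.04 ± 0.19 at 6 h. The upper bound at 12 h corresponds to 1.48-fold. Between times, HAMP rose in GPI-PLD cells by 0.73 ± 0.19 (1.65-fold, 95% interval 1.26 to 2.17, adjusted p = 0.0315). In LacZ cells the difference was 0.51 ± 0.19 (1.42-fold, adjusted p = 0.204), and the arrays of the 2 times did not overlap. The virus-by-time term, 0.22 ± 0.27 (95% interval -0.34 to 0.77, adjusted p = 0.906), did not show a difference between the viruses. Averaged over viruses, the time effect was 0.62 ± 0.13 (1.53-fold, 95% interval 1.26 to 1.86, adjusted p = 0.00481), from means of 650 ± 91.0 at 12 h and 404 ± 72.7 at 6 h (n = 8 each). This averaged contrast was added after the data were seen. HAMP was called in it under all 25 alternatives run, with adjusted p between 0.00193 and 0.0141, while the call in GPI-PLD cells alone held in 19 of 26. Without replicate 4 of GPI-PLD at 6 h, the lowest HAMP value, the GPI-PLD difference was 0.58 with adjusted p = 0.121. Without replicate 3 of that group, or replicate 1, 2 or 3 of GPI-PLD at 12 h, the difference was 0.66 to 0.71 and the adjusted p 0.0662 to 0.0994. In the averaged contrast the hepatocyte marker SERPINA1 was called higher (0.18 ± 0.05, adjusted p = 0.0347) and the other 6 hepatocyte markers were not called. Of the 15 markers of other cell types 0 were called, and their differences went in both directions. PECAM1 had 0.64 ± 0.28 (adjusted p = 0.207), HBB 0.47 ± 0.16 (adjusted p = 0.0973) and LYZ 0.29 ± 0.12 (adjusted p = 0.198). On the other side PTPRC had -0.25 ± 0.30 and LUM -0.08 ± 0.09. COL3A1 (-0.07), CDH5 (-0.04), DCN (-0.04) and COL1A2 (-0.03) were also below 0. The rest lay between 0.00 for ALAS2 and 0.28 for VWF. The part of these markers in the HAMP difference was not tested. Endothelial markers summed to 289 to 575 with GPI-PLD and 289 to 616 with LacZ at 12 h, and to 147 to 443 with GPI-PLD and 138 to 579.6 with LacZ at 6 h. Erythroid markers summed to 619 to 1146 with GPI-PLD and 578 to 1163 with LacZ at 12 h, and to 384 to 965 with GPI-PLD and 498 to 724 with LacZ at 6 h. Leukocyte markers, mostly LYZ, summed to 8619.7 to 12592 with GPI-PLD and 9721 to 13623 with LacZ at 12 h, and to 8091 to 10891 with GPI-PLD and 5607 to 11778 with LacZ at 6 h. The 12 h and 6 h sums overlapped in all 3 lists.

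ACO1, cytosolic aconitase that turns into iron regulatory protein 1 when it lacks its iron-sulfur cluster, had 1 probe set, 207071_s_at. It gave 1969, 1389, 1465 and 1147 with GPI-PLD at 12 h, against 1599, 1569, 1473 and 1452 with LacZ at 12 h. At 6 h ACO1 gave 1862, 2001.4, 1978 and 1468 with GPI-PLD, against 1665, 2197, 1823 and 1805 in LacZ cells. Viruses overlapped at both times, with differences of -0.05 ± 0.14 at 12 h and -0.04 ± 0.14 at 6 h. The 2 times did not overlap in LacZ cells (-0.28 ± 0.14, adjusted p = 0.407) but did in GPI-PLD cells (-0.30 ± 0.14, adjusted p = 0.307). Averaged over viruses, ACO1 at 12 h was lower by a log2 difference of -0.29 ± 0.10 (adjusted p = 0.0936). It passed without replicate 1 of GPI-PLD at 12 h (-0.36) or replicate 4 of GPI-PLD at 6 h (-0.34).

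For the virus comparisons, limma called 0 of 14 member probe sets at 12 h, at 6 h, averaged over times or for the virus-by-time term. The background was 0% of all 22215 probe sets in each of these 4 contrasts. At an unadjusted p under 0.05, 0 of 14 members passed at 12 h (6.76% of all probe sets) and 1 of 14, SLC11A2 203123_s_at, at 6 h (4.33%). At 12 h the viruses were apart without overlap for 0 members, against 2.31% of all probe sets higher and 1.49% lower in GPI-PLD cells. At 6 h they were apart for that 1 member, lower in GPI-PLD cells, against 1.23% of all higher and 1.54% lower. The median member difference was 0.09 at 12 h, against 0.03 over all probe sets, and -0.05 at 6 h, against -0.01. The 95% intervals reached a median of 0.28 on either side of the estimate, so smaller differences than that were mostly not resolvable with 4 arrays. Fitting without trend and robust variance also called 0 members.

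**Figure D3:**
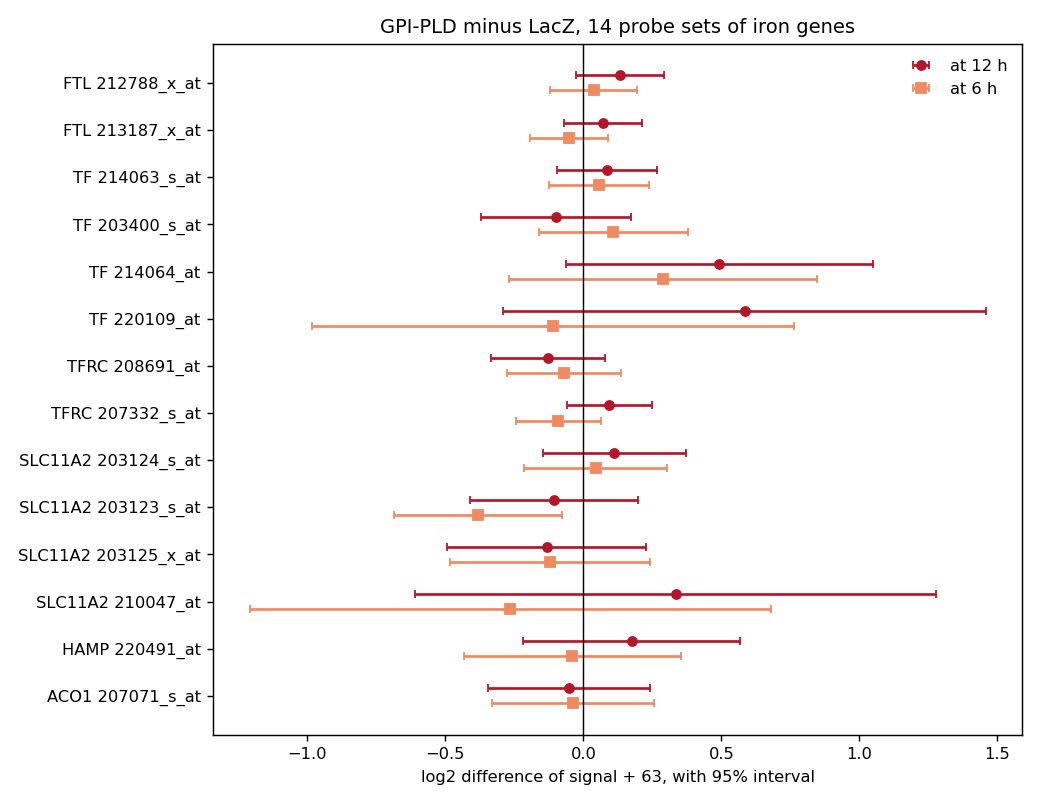
Differences of GPI-PLD from LacZ cells in log2(signal + 63) for the 14 member probe sets at 12 h (circles) and 6 h (squares), with 95% intervals from limma. Of the 28 intervals only that of SLC11A2 203123_s_at at 6 h lies off 0, at -0.69 to -0.08, and its adjusted p was 0.9997.

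For the time comparisons, limma called 1 of 14 members in GPI-PLD cells, HAMP, where 3.80% of all probe sets were called, 2.0% higher and 1.80% lower. In LacZ cells it called 0 of 14, where 2.73% of all were called, 1.59% higher and 1.14% lower. Averaged over viruses 1 of 14 was called, HAMP again, against 7.09% of all, 3.63% higher and 3.46% lower. With 14 members, these counts were near the shares of all probe sets called. At an unadjusted p under 0.05 the members numbered 3 of 14 in GPI-PLD cells (HAMP, TFRC 207332_s_at and ACO1, with 15.8% of all) and 3 of 14 in LacZ cells (HAMP and SLC11A2 203123_s_at and 203124_s_at, with 13.2% of all). The 12 h and 6 h arrays did not overlap for 2 members in GPI-PLD cells, HAMP and TFRC 207332_s_at, both higher (5.84% of all were higher and 4.59% lower). In LacZ cells HAMP was higher (4.55% of all) and SLC11A2 203124_s_at and ACO1 were lower (3.99% of all) without overlap. The member median was 0.03 with GPI-PLD, against 0.05 for all probe sets, and -0.03 in LacZ cells, against 0.00.

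**Figure D4:**
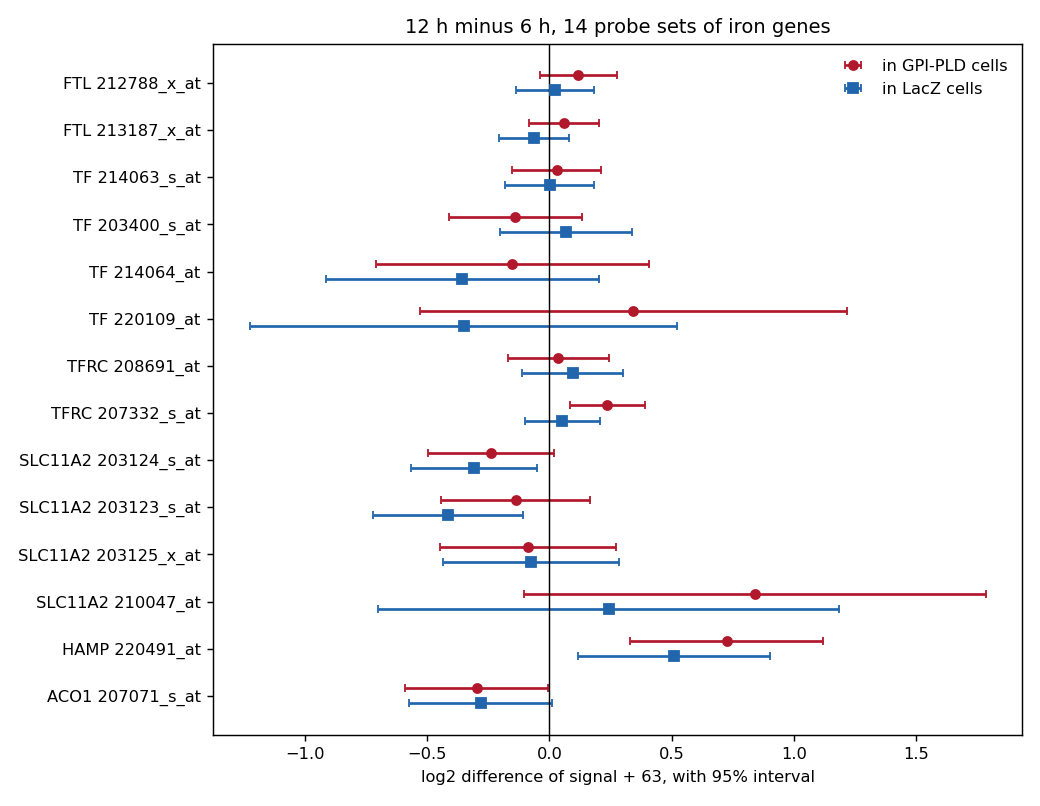
Differences of 12 h from 6 h in log2(signal + 63) for the 14 member probe sets in GPI-PLD cells (circles) and LacZ cells (squares), with 95% intervals from limma. HAMP stands at 0.73 and 0.51 in the 2 viruses, and the FTL and bright TF sets lie close to 0.

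In a list of genes for hepcidin control, those called between times were higher at 12 h. The list holds regulators of hepcidin and also targets of the same signals. Of its 35 genes, 29 had a probe set with that symbol alone, and the brightest stood for each gene. In GPI-PLD cells 4 were called higher and 0 lower, where 2.53% of 11963 genes were called higher and 2.33% lower. They were ID2 (0.65 ± 0.09, adjusted p = 9.74e-05) and ID1 (0.37 ± 0.09, adjusted p = 0.0153), targets of BMP-SMAD signalling, ACVR1 (0.61 ± 0.15, adjusted p = 0.0245), a BMP type I receptor, and BAMBI (0.46 ± 0.12, adjusted p = 0.0270), a decoy receptor that dampens BMP signals. In LacZ cells 3 were called higher and 0 lower, where 1.91% of genes were called higher and 1.55% lower. These were ACVR1 (0.84 ± 0.15, adjusted p = 0.00207), ID2 (0.54 ± 0.09, adjusted p = 0.00102) and BAMBI (0.53 ± 0.12, adjusted p = 0.0127). The list's median was 0.20 with GPI-PLD, against 0.05 over all genes, and 0.11 in LacZ cells, against -0.00. Leaving out single arrays ended some of these calls. ID1 in GPI-PLD cells did not pass without replicate 1 of GPI-PLD at 12 h (0.33) or replicate 4 at 6 h (0.29). ACVR1 there did not pass without replicate 2, 3 or 4 at 12 h or 1, 2 or 4 at 6 h (0.56 to 0.61), and BAMBI without replicate 2 or 4 at 12 h or 1, 3 or 4 at 6 h (0.39 to 0.47). In LacZ cells BAMBI did not pass without replicate 2 at 12 h (0.51).

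ID2 averaged 6864 ± 430 in GPI-PLD cells and 6400.02 ± 408 in LacZ cells at 12 h, and 4348 ± 399 in GPI-PLD cells and 4399.5 ± 449 in LacZ cells at 6 h. ACVR1 averaged 1195 ± 150.2 in GPI-PLD and 1410.4 ± 157 in LacZ cells at 12 h, against 759 ± 50.3 in GPI-PLD and 771 ± 179 in LacZ cells at 6 h. Both genes were higher at the later time under either virus. A second ID2 probe set, 201566_x_at, did not pass (0.59 ± 0.23 in GPI-PLD cells and 0.04 ± 0.23 in LacZ cells). Averaged over viruses 5 genes of the list were called higher and 0 lower, where 4.45% of all genes were called higher and 4.45% lower. The fifth was IL6ST, the signalling chain of the interleukin-6 receptor (0.35 ± 0.08, adjusted p = 0.00423). Of 4 other IL6ST probe sets 1 passed in this contrast, 212196_at (0.35 ± 0.10, adjusted p = 0.0470). The other 3 did not, with 0.13 ± 0.20 for 204863_s_at, 0.37 ± 0.22 for 204864_s_at and 0.24 ± 0.21 for 211000_s_at. SMAD7, which inhibits SMAD signalling, had -0.50 ± 0.19 in GPI-PLD cells (adjusted p = 0.159). Its means were 458 in GPI-PLD and 537 in LacZ cells at 12 h, against 675.5 and 550 at 6 h. SMAD6, of the same list, averaged 213 in GPI-PLD and 138 in LacZ cells at 12 h, against 286 and 175 at 6 h. The means of SMAD6 and SMAD7 were thus lower at 12 h under either virus, without a call, while those of ID1 and ID2 were higher. TMPRSS6, a protease that lowers hepcidin, had 1.57 ± 0.55 in GPI-PLD cells (adjusted p = 0.130) and -1.30 ± 0.55 in LacZ cells (adjusted p = 0.290). Its viruses already differed at 6 h, with means of 150 in GPI-PLD and 544 in LacZ cells. That difference was -1.79 ± 0.55 (limma unadjusted p = 0.00372, adjusted p = 0.9997). At 12 h the means were 535.5 in GPI-PLD and 225 in LacZ cells. No TMPRSS6 comparison between times or between viruses passed. Between viruses 0 of the 29 genes were called at either time.

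**Figure D5:**
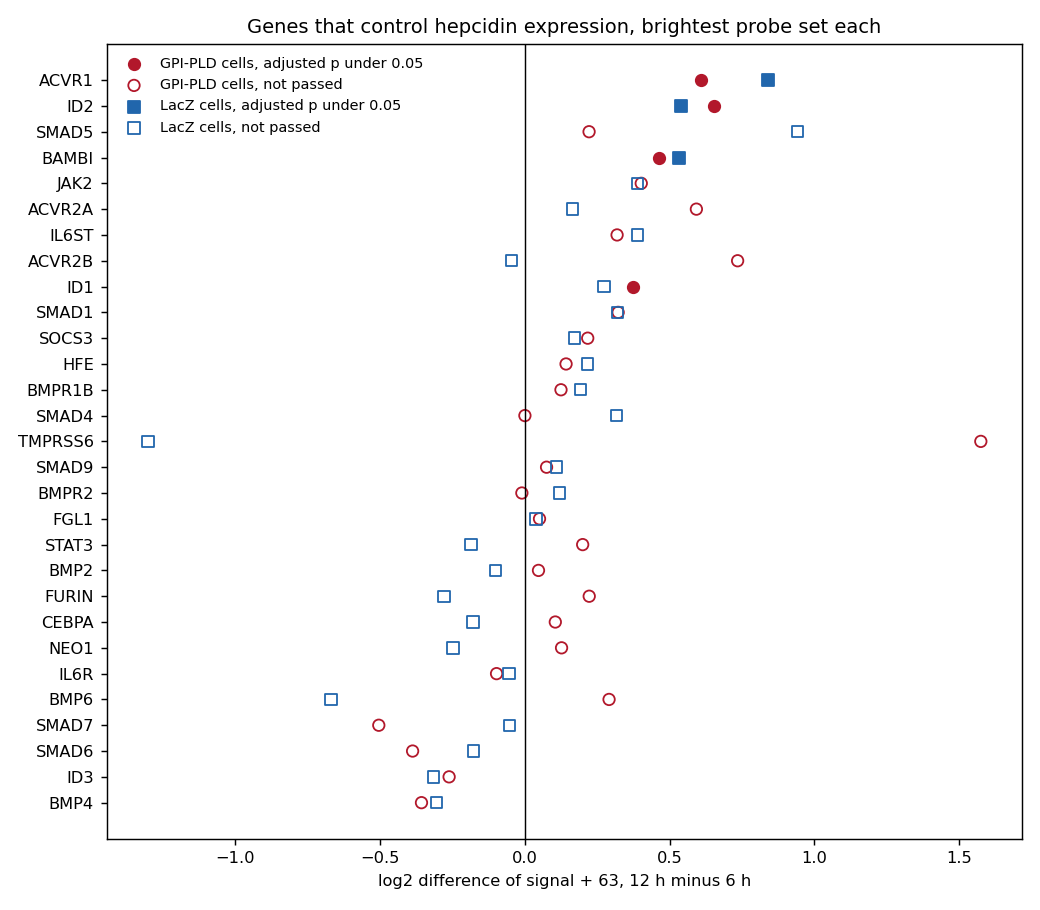
Differences of 12 h from 6 h in log2(signal + 63) for 29 genes of the hepcidin control list, in GPI-PLD cells (circles) and LacZ cells (squares). Each gene has its brightest probe set, and the list includes ID1 and ID2, targets of BMP-SMAD signalling. Filled marks passed an adjusted p under 0.05: 4 in GPI-PLD cells (ID2, ID1, ACVR1 and BAMBI) and 3 in LacZ cells (ACVR1, ID2 and BAMBI), all to the right of 0.

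Other genes of iron and heme handling gave counts close to the share of all genes called. Of 34 listed genes for further iron transport, ferritin turnover and heme handling, 29 were on the array. Between times 0 were called in GPI-PLD cells, where 2.53% of all genes were called higher and 2.33% lower. In LacZ cells 1 was called, where the shares were 1.91% and 1.55%. It was SLC39A14, a zinc transporter that also imports iron (0.23 ± 0.06, adjusted p = 0.0418). SLC39A14 averaged 24472 ± 841 in LacZ cells at 12 h and 20933 ± 959 in LacZ cells at 6 h. Its call ended when any of 12 of the 16 arrays was left out, among them each LacZ array at 12 h and replicates 1 to 3 of LacZ at 6 h (0.20 to 0.24). Averaged over viruses 2 were called higher and 0 lower, against 4.45% of all genes in each direction. They were SLC39A14 (0.16 ± 0.04, adjusted p = 0.0162) and HMOX1 (0.60 ± 0.13, adjusted p = 0.00496), heme oxygenase, which releases iron from heme. Within a virus HMOX1 did not pass, with 0.55 ± 0.19 in GPI-PLD cells (adjusted p = 0.119) and 0.66 ± 0.19 in LacZ cells (adjusted p = 0.0613). BLVRB, a biliverdin reductase, had -0.67 ± 0.19 in GPI-PLD cells (adjusted p = 0.0519). In LacZ cells it went the other way, 0.34 ± 0.19 (adjusted p = 0.484), and averaged over viruses it had -0.16 ± 0.13 (adjusted p = 0.594).

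Of 12 listed genes of heme synthesis, a main use of iron, 10 were on the array and 0 passed between times or between viruses. At the shares just given for all genes, 10 genes are too few for that count to say anything of the list. FECH, which inserts iron into heme, had 0.23 ± 0.14 in GPI-PLD cells. Among 19 iron-sulfur cluster assembly genes on the array, of 30 listed, 0 were called in GPI-PLD cells and 1 in LacZ cells, HSPA9, the mitochondrial chaperone of the pathway (0.50 ± 0.12, adjusted p = 0.0246). These counts too are near the shares of all genes called in each virus. A second HSPA9 probe set pointed the other way there (200690_at, -0.21 ± 0.20) and 200692_s_at had 0.34 ± 0.10 without passing. The HSPA9 call in LacZ cells ended without replicate 2 or 4 of LacZ at 12 h or at 6 h (0.37 to 0.51). Averaged over viruses HSPA9 was called higher (0.34, adjusted p = 0.0151) and CIAPIN1, a cytosolic assembly factor, lower (-0.32 ± 0.06, adjusted p = 0.00320). CIAPIN1 averaged 3856 ± 409 in GPI-PLD and 3637 ± 222 in LacZ cells at 12 h, and 4774 ± 118 in GPI-PLD and 4571 ± 466 in LacZ cells at 6 h. Between viruses 0 genes of these lists were called at 12 h or 6 h.

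Across the 16 arrays, the genes whose log2 values lay closest to those of HAMP were SDF2L1, SLC25A36 and HSPA5. Likeness was the root mean square difference of values centred on each gene's own mean, over 6892 genes. It was 0.17 for SDF2L1, 0.17 for SLC25A36 and 0.18 for HSPA5, where HAMP's own spread about its mean was 0.37. HSPA5 averaged 39575 in GPI-PLD and 34437 in LacZ cells at 12 h, and 25445 in GPI-PLD and 26672 in LacZ cells at 6 h. For SLC11A2 203124_s_at, with a spread of 0.20, the closest genes were CENPU (0.11), RAD51C (0.11) and ANXA4 (0.12). These lists describe 16 arrays that share the same 4 groups, and no test was made of them.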

How the data were processed

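The deposited intensities are MAS5 signals on a linear scale, per the submitters' processing notes, from 10 µg of total RNA per array per the labels. The scanner, software version and other steps are not given in the sources used here. The 2% trimmed mean was 1000.35 to 1000.39 on every array and the medians 304.5 to 377.6, so no rescaling was applied. Of 22283 probe sets, 68 were controls. All 16 columns were used. Platform annotation gave 1 symbol to 19065 probe sets, several to 1043 and none to 2107.

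Signals were analysed as log2(signal + 63), 63 being the 20th percentile of all signals, without a filter on low signals. Of the 14 member probe sets, 12 reached the 40th percentile of mean signal. Limma 3.58.1 (statmod 1.5.0, R 4.3.3) fitted 4 group means with eBayes, trend and robust, on 12 residual degrees of freedom. Scripts were tested on simulated data. Every member probe set was described. For wider lists, up to 3 genes of smallest p per list and time contrast were eligible to be named. In the hepcidin control list every called gene was named, and SMAD6, SMAD7 and TMPRSS6 were named outside that rule. The 3 genes most like each of 2 members were named too. These 2 had the smallest p in a time contrast within either virus, among the brightest probe sets of the member genes. TFRC 207332_s_at and SLC11A2 203123_s_at had smaller p than SLC11A2 203124_s_at but were not eligible. Members and lists were chosen with earlier results of these data known. Alternatives covered scaling, pseudocount, filters, probe set choice, the variance model and leaving out each array. Replicates are numbered in deposited order. Figures used matplotlib 3.10.9 and tables pandas 2.3.3 in Python 3.11.15.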

Additional observations from a re-analysis of the deposited data

Results flagged for a closer look

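For TF, probe set 203400_s_at, replicate 4 of GPI-PLD at 6 h gave 35075.4, while the other 3 arrays of that group gave 24529.6 to 25630.2. The gap took 0.877 of the group's range. Chance sets apart about 1 in 20 groups, and 56 groups of member probe sets were examined. The brighter TF set, 214063_s_at, also had its highest value of that group on this array, 44682, but not far from the others. The array was extreme in its group for other members too. FTL 212788_x_at was highest there (116477, gap 0.823 of the range). ACO1 (1468.1, gap 0.765) and HAMP (271.9, gap 0.519) were lowest. Some members, such as SLC11A2 203124_s_at at 1610.8, lay inside the range of the other arrays. Whether the array as a whole differs was not tested.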

How the results depend on the processing

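No member probe set was called between viruses, for the virus-by-time term or between times in LacZ cells under any alternative run. In GPI-PLD cells, the count of members called between times was 1 in the analysis reported, 2 with probe sets filtered at the 60th percentile, 0 with only the arrays compared in the fit, and 0 to 2 when 1 array was left out. Under quantile normalization it was 1 as well, but TFRC 207332_s_at (0.31, adjusted p = 0.00878) took the place of HAMP (adjusted p = 0.0524). HAMP in GPI-PLD cells also lost its call with only the arrays compared (adjusted p = 0.0948), and without GPI-PLD 6 h replicate 3 (0.0866) or 4 (0.121) or GPI-PLD 12 h replicate 1 (0.0994), 2 (0.0662) or 3 (0.0706). In LacZ cells its adjusted p was 0.0978 to 0.389. Averaged over viruses, a contrast chosen after seeing the data, 1 member was called, against 3 with quantile normalization, 2 with 75th percentile scaling, 2 with the filter at the 40th percentile, 3 at the 60th, 3 with the brightest probe set per gene, and 1 to 2 with 1 array left out. The additions were SLC11A2 203124_s_at, ACO1 or TFRC 207332_s_at. Hepcidin control genes called, also counted under alternatives chosen after seeing the data, numbered 4 in GPI-PLD cells, against 1 without trend and robust variance, 2 with only the arrays compared and 1 to 5 with 1 array left out. They numbered 3 in LacZ cells, against 5 with quantile normalization and 2 to 4 with 1 array left out, and 5 averaged over viruses, against 5 to 6. Of 96 uncalled member values, 40 changed sign in at least 1 alternative. No paired analysis was possible because the labels give no replicate numbers. TF 220109_at and SLC11A2 210047_at, the 2 members below the 40th percentile of mean signal, had standard errors of 0.42 and 0.45 in each comparison of 2 groups, and the filters leave them out.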
